A study of Mus musculus with 8 samples.

Results

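The mitochondrial ribosomal protein genes are the nuclear genes for the protein subunits of the ribosome inside mitochondria. They were taken as every row of the count table whose symbol begins with Mrpl or Mrps followed by a digit, which gave 77 genes of 24421 rows. By name, 48 belong to the large subunit (Mrpl) and 29 to the small subunit (Mrps). All 77 passed the filter on low counts, with at least 181 counts for each of them in each library, and 13540 genes were tested in all.

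RNA was sequenced from endothelial cells of mouse embryonic brain at E14.5, in 4 Flvcr2 knockout and 4 Flvcr2 heterozygous libraries of the C57Bl6 strain. The mutant Flvcr2 allele drives GFP, and cells positive for GFP and for the endothelial surface protein CD31 were sorted, so that both genotypes carry the allele and neither is wild type. Each library was made from 2000 to 5000 cells. Which part of Flvcr2 the mutation removes, and whether libraries of a genotype are separate embryos, is not given in the labels. The p-values therefore measure the spread between these libraries, which may be partly technical.

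The mitochondrial ribosome translates the few proteins that mitochondrial DNA encodes, all of them membrane subunits of the respiratory chain and the ATP synthase. Its RNAs come from mitochondrial DNA, whereas its proteins are encoded in the nucleus, made in the cytosol and imported. Compared with a bacterial ribosome it has lost RNA and gained proteins, so that each subunit holds proteins with a bacterial counterpart beside proteins found in mitochondria alone. The large subunit makes the peptide bonds, and the small subunit reads the messenger RNA. Brain endothelial cells form the blood-brain barrier and are described as rich in mitochondria in the adult.

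Total counts were 12.1 to 35.9 M in knockout libraries and 9.11 to 22.6 M in heterozygous libraries. The 10 endothelial markers had counts in all 8 libraries and summed to 9098 to 11998 CPM (counts scaled to the library's normalised total) in knockout libraries and 8003 to 14193 CPM in heterozygous libraries. Of these 10 markers 1 was called higher in the knockout and 0 lower. Over all tested genes, 5.53% were called higher and 4.02% lower. Of the markers of other cells, the 10 for neurons summed to 80.5 to 246 CPM in knockout libraries and 255 to 1632 CPM in heterozygous libraries, with 7 called lower in the knockout. The 7 for erythroid cells summed to 17.6 to 51.8 CPM in knockout and 228 to 611 CPM in heterozygous libraries, with 2 of 4 tested called lower and Hba-a1 and Hbb-b1 at 0 throughout. The 8 for radial glia summed to 263 to 544 CPM in knockout and 388 to 675 CPM in heterozygous libraries, the 8 for pericytes to 22.6 to 170 CPM and 171 to 274 CPM, and the 8 for microglia to 98.8 to 638 CPM and 380 to 1098 CPM, with 3, 2 and 1 called lower. Fewer such cells and less RNA per cell cannot be told apart in bulk libraries. The mean log2 CPM of these 5 lists of other cells, called the other-cell score below, was 2.12 to 3.68 in knockout libraries and 4.39 to 5.54 in heterozygous libraries, with no overlap. Score and genotype thus go together, and a fit that holds both can hardly tell them apart. Flvcr2, listed as Mfsd7c, averaged 301 ± 73.6 CPM in knockout libraries and 427 ± 124 CPM in heterozygous libraries (SD, n = 4 each), with an edgeR adjusted p of 0.209 and overlapping genotypes; with the removed part unknown, this count does not check the labels.

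Few mitochondrial ribosomal protein genes passed the test between genotypes, and 1 of them, Mrpl17, was about 2-fold higher in the knockout. In edgeR's quasi-likelihood test with Benjamini-Hochberg adjustment over all tested genes, 2 of the 77 were called at an adjusted p under 0.05, both higher in the knockout and both in the large subunit, and 0 were called lower. That is 2.6% of the genes, against 9.55% of all tested genes (5.53% called higher and 4.02% called lower). At an unadjusted p under 0.05 there were 9 of 77 (11.7%), against 25.6% of all tested genes. The 95% interval of the fold change excluded a 2-fold change in both directions for 71 of them and covered no change for 68. The called genes were Mrpl17 and Mrpl10.

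**Figure D1:**
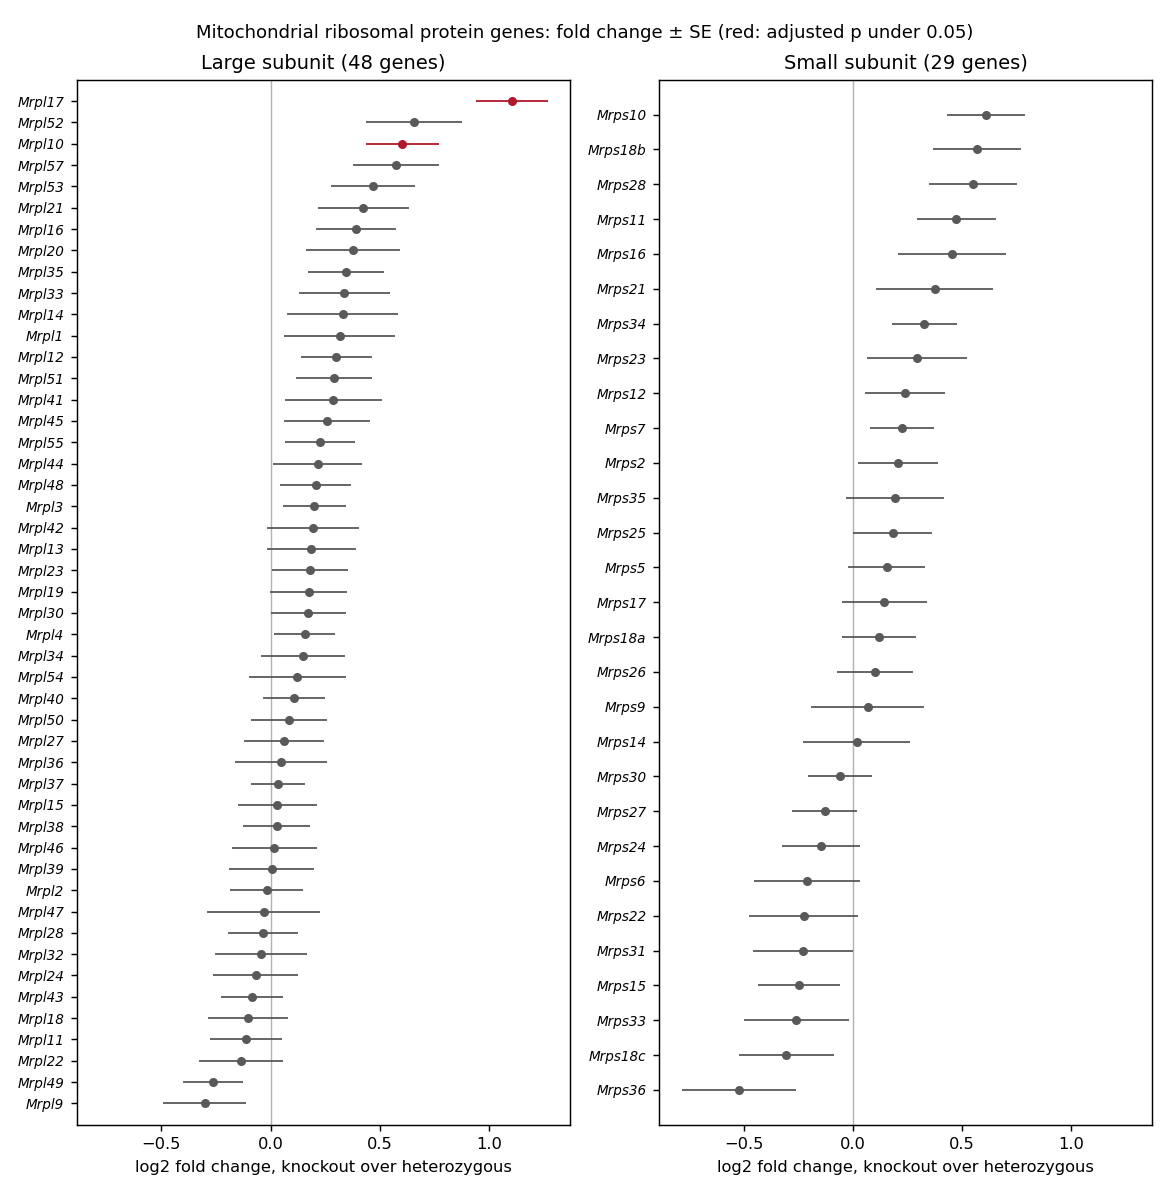
Log2 fold change of knockout over heterozygous libraries for the 48 large subunit genes (left) and the 29 small subunit genes (right), as the edgeR estimate ± SE; red points had an adjusted p under 0.05. Mrpl17 stands at 1.10, the other 76 genes lie between -0.52 and 0.66, and 56 of the 77 estimates are above 0.

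Mrpl17 encodes bL17m, a large subunit protein with a bacterial counterpart that lies near the exit of the tunnel through which the new protein leaves the ribosome. Its level was 327, 415, 295 and 331 CPM in knockout libraries 1 to 4, against 141, 165, 135 and 195 CPM in heterozygous libraries 1 to 4. The lowest knockout library stood well above the highest heterozygous library. The means were 342 ± 51.3 CPM in knockout and 159 ± 27.2 CPM in heterozygous libraries (SD, n = 4 each). The log2 fold change reached 1.10 ± 0.16 (SE), with an edgeR adjusted p of 0.00384. The fold change was 2.15, with a 95% interval of 1.67 to 2.77.

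Mrpl17 was the most abundant of the 77 genes by CPM in every knockout library and ranked 5, 2, 3 and 2 in heterozygous libraries 1 to 4. It took 5.87, 5.28, 5.18 and 6.07% of all counts of these genes in knockout libraries 1 to 4, against 2.55, 3.13, 2.93 and 3.17% in heterozygous libraries 1 to 4. Its RefSeq-matched transcript has 7300 nt, the longest of the 77. Per kilobase of transcript it ranked 44 of 77 in knockout and 59 of 77 in heterozygous libraries, at 46.9 ± 7.03 and 21.8 ± 3.73 CPM per kb (SD, n = 4 each). The gene lies on the minus strand of chr7:105803206-105811099 (GRCm38, the same build as mm10; GENCODE M21) in 3 exons that overlap no exon of another gene on either strand. Leaving out any 1 of the 8 libraries kept the call, with log2 fold changes up to 1.22 and no lower than 1.0. With the other-cell score as a covariate the estimate was 0.69 ± 0.34 and the edgeR adjusted p 0.631, in a fit that called 3 genes higher and 2 lower among all tested genes (0.0369%).

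Mrpl10 encodes uL10m, the base of the L7/L12 stalk, the flexible arm of the large subunit that carries copies of Mrpl12 and receives the translation factors. It had 134, 167, 100 and 114 CPM in knockout libraries 1 to 4, against 88.9, 81.8, 80.8 and 87.4 CPM in heterozygous libraries 1 to 4. The heterozygous libraries lay close together and all below the knockout libraries, which were more spread. The log2 fold change was 0.60 ± 0.17 with an edgeR adjusted p of 0.0486. This call sat at the threshold: it was kept in 1 of the 8 fits that left out a library, the one without knockout 3, and the edgeR adjusted p in the others was 0.0727 to 0.116. Those 8 fits called 4.16 to 9.69% of all genes. Its exons on chr11:97041560-97049213, plus strand, overlap those of Gm11574 on the other strand. Reads from the stretch they share cannot be told apart in these counts.

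The stalk list had 5 genes, with 1 called higher, Mrpl10, and 0 lower, while 9.55% of all tested genes were called. Its median log2 fold change was 0.30, against 0.17 over the large subunit and -0.03 over all tested genes. Mrpl12, the protein that binds the factors, had 142, 165, 117 and 141 CPM in knockout libraries 1 to 4, against 118, 109, 93.2 and 138 CPM in heterozygous libraries 1 to 4, and its edgeR adjusted p was 0.275. Mrpl53, a mitochondria-specific stalk protein, had a log2 fold change of 0.47 and an adjusted p of 0.153. The remaining stalk genes Mrpl54 and Mrpl11 had log2 fold changes of 0.12 and -0.11.

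Around the exit tunnel, the 6 genes of the list had 1 called higher, Mrpl17, while 9.55% of all tested genes were called. Their median log2 fold change was 0.07. The other 5 ran from -0.14 for Mrpl22 to 0.26 for Mrpl45, the protein that ties the ribosome to the inner membrane. Mrpl23, Mrpl24 and Mrpl47, which also line the exit, were at 0.18, -0.07 and -0.03. The central protuberance, the crown of the large subunit that faces the small one, had 0 of 10 genes called and a median of 0.16. Its largest estimate was that of Mrpl52, a mitochondria-specific protein, with 54.3, 79.2, 59.7 and 43.6 CPM in knockout libraries 1 to 4, against 39.6, 36.9, 27.5 and 46.1 CPM in heterozygous libraries 1 to 4. Knockout 4 fell below heterozygous 4, so the genotypes overlapped, and the edgeR adjusted p was 0.0906 at a log2 fold change of 0.66.

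Mrpl57, or mL63, a small mitochondria-specific protein of the large subunit, had 80.5, 137, 103 and 82.9 CPM in knockout libraries 1 to 4, against 70.4, 64.6, 55.7 and 80.3 CPM in heterozygous libraries 1 to 4. The genotypes did not overlap, but knockout 1 and heterozygous 4 nearly touched. The log2 fold change was 0.57 ± 0.20 and the edgeR adjusted p 0.0963. Of the large subunit genes with a bacterial counterpart 2 of 30 were called higher (6.67%), with a median of 0.17. Of the mitochondria-specific ones 0 of 18 were called higher, with a median of 0.16. In either list 0 were called lower, and 9.55% of all tested genes were called.

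Genes of the large subunit with the lowest estimates were Mrpl9 and Mrpl49. Mrpl9, or bL9m, had 48.0, 44.1, 27.8 and 46.8 CPM in knockout libraries 1 to 4, against 52.7, 56.0, 48.2 and 48.8 CPM in heterozygous libraries 1 to 4. Knockout 3 was far below the rest, and knockout 1 was just below the lowest heterozygous library. Mrpl49, or mL49, had 52.9, 66.5, 53.9 and 61.4 CPM in knockout libraries 1 to 4, against 67.6, 69.0, 69.8 and 74.9 CPM in heterozygous libraries 1 to 4. Neither genotype pair overlapped, at log2 fold changes of -0.30 and -0.26 and edgeR adjusted p of 0.354 and 0.260. Exons of Mrpl9 overlap those of Oaz3 on the other strand, and exons of Mrpl49 those of Syvn1.

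The most abundant large subunit genes after Mrpl17 were Mrpl28 (bL28m), Mrpl51 (mL51) and Mrpl4 (uL4m, which lines the tunnel). Mrpl28 averaged 181 ± 35.1 CPM in knockout and 185 ± 19.6 CPM in heterozygous libraries, and Mrpl51 189 ± 35.4 and 154 ± 27.6 CPM. Mrpl4 averaged 174 ± 25.4 CPM in knockout and 156 ± 8.52 CPM in heterozygous libraries (SD, n = 4 each). The edgeR adjusted p of these 3 genes was 0.921, 0.332 and 0.529.

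**Figure D2:**
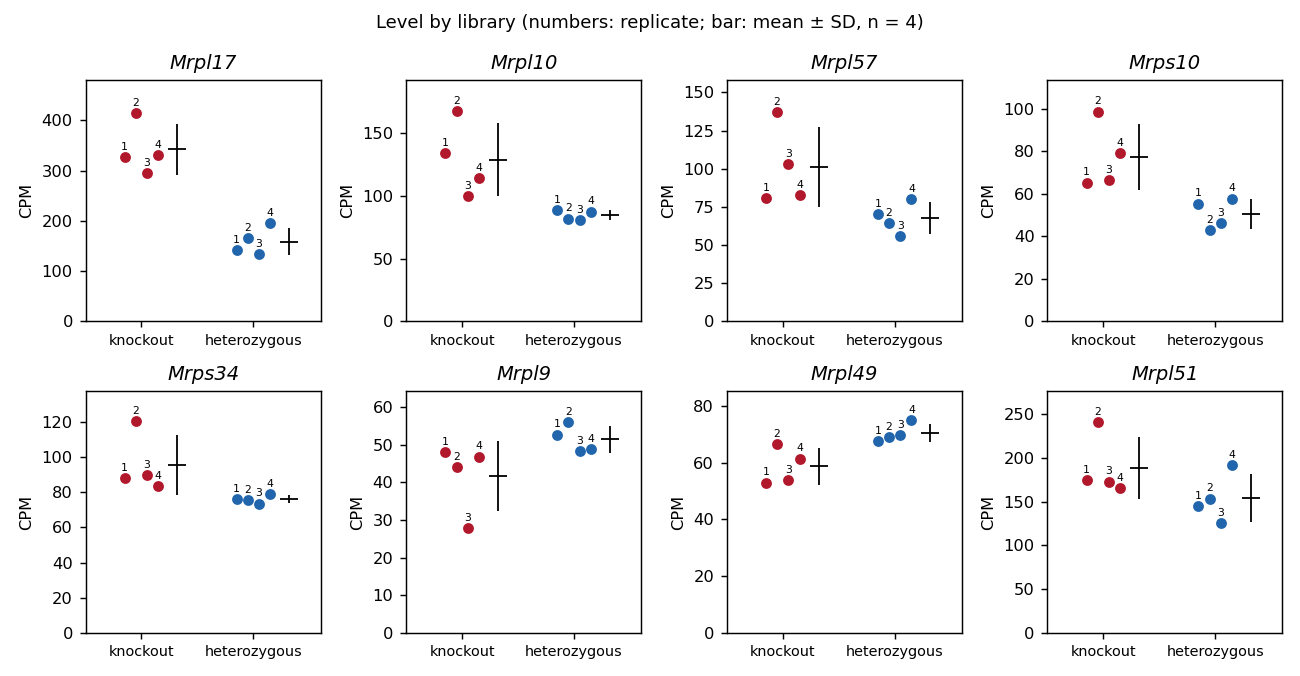
CPM of 8 genes in each library, with knockout at left and heterozygous at right; numbers name the replicate and the bar is the mean ± SD over 4 libraries. The panels show the 7 genes whose genotypes did not overlap, and Mrpl51. Mrpl17 runs from 295 to 415 CPM in the knockout and from 135 to 195 CPM in the heterozygous libraries, and knockout 2 is the highest library in 6 of the 8 panels.

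In the small subunit, 0 of 29 genes were called, against 9.55% of all tested genes. At an unadjusted edgeR p under 0.05 there were 4, against 25.6% of all tested genes. DESeq2, which called 17.2% of the genes it gave an adjusted p, called 1, Mrps10. The median log2 fold change was 0.14, with 19 estimates above 0 and 10 below. Mrps10, or uS10m, a protein of the head of the subunit, had 65.3, 98.7, 66.3 and 79.0 CPM in knockout libraries 1 to 4, against 55.5, 43.0, 46.2 and 57.8 CPM in heterozygous libraries 1 to 4. All knockout libraries were above all heterozygous ones. The log2 fold change was 0.61 ± 0.18, with an adjusted p of 0.0561 in edgeR and 0.0259 in DESeq2.

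Next in the small subunit came Mrps18b (mS40), Mrps28 (bS1m) and Mrps11 (uS11m), at log2 fold changes of 0.57, 0.55 and 0.47 and edgeR adjusted p of 0.104, 0.115 and 0.129. These 3 were chosen after their values were seen. Mrps34 (mS34), also chosen after its values were seen, had 88.2, 121, 89.7 and 83.5 CPM in knockout libraries 1 to 4, against 76.2, 75.6, 73.6 and 79.0 CPM in heterozygous libraries 1 to 4. Its genotypes did not overlap, the heterozygous libraries were nearly equal, and the edgeR adjusted p was 0.197 at a log2 fold change of 0.33. Exons of Mrps34 overlap those of Mapk8ip3 on the other strand.

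At the low end stood Mrps36, which carries a ribosomal name but in mammals is a subunit of the oxoglutarate dehydrogenase complex of the citric acid cycle. It had 21.2, 30.2, 20.4 and 13.3 CPM in knockout libraries 1 to 4, against 35.2, 31.9, 22.7 and 32.3 CPM in heterozygous libraries 1 to 4. Knockout 2 lay within the heterozygous range, and the log2 fold change was -0.52 ± 0.26 with an edgeR adjusted p of 0.240. Mrps18c, or bS18m, and Mrps33, or mS33, had log2 fold changes of -0.30 and -0.26 and adjusted p of 0.420 and 0.542. Symbols of annotated pseudogenes exist for Mrps36, Mrpl23 and Mrpl48, so reads of these genes could have been split by the counting.

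The most abundant small subunit genes were Mrps7, Mrps33, Mrps14 and Mrps17, of which 0 were called. Mrps7 (uS7m) averaged 130 ± 19.5 CPM in knockout and 112 ± 6.52 CPM in heterozygous libraries, Mrps14 (uS14m) 108 ± 34.8 and 107 ± 29.7 CPM, and Mrps17 (uS17m) 102 ± 14.7 and 92.3 ± 23.5 CPM (SD, n = 4 each). Mrps33 averaged 98.2 ± 32 CPM in knockout and 117 ± 25.4 CPM in heterozygous libraries. Among the small subunit genes with a bacterial counterpart 0 of 16 were called, with a median of 0.18. Among the mitochondria-specific ones 0 of 10 were called, with a median of 0.14, while 9.55% of all tested genes were called.

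Mrps30 and Mrps18a are named for the small subunit, but their proteins, mL65 and mL66, sit in the large subunit of the mammalian mitochondrial ribosome. Mrps30 averaged 54.8 ± 6.92 CPM in knockout and 57.1 ± 3.17 CPM in heterozygous libraries, and Mrps18a 63.8 ± 11.9 and 58.7 ± 6.48 CPM (SD, n = 4 each), with log2 fold changes of -0.06 and 0.12. With both moved to the large subunit, it has 50 genes with a median of 0.16. The small subunit then has 27 genes with a median of 0.16, Mrps36 still among them, and the calls are the same 2.

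In all, genotypes did not overlap for 7 of 77 genes (9.09%), against 17.6% of all tested genes. Of the 7, Mrpl17, Mrpl10, Mrpl57, Mrps10 and Mrps34 were higher in the knockout and Mrpl9 and Mrpl49 lower. The median log2 fold change was 0.16 over the 77 genes, against -0.03 over all tested genes. Knockout 2 was the highest of the 8 libraries for 59 of the 77 genes and the highest knockout library for 71. Without knockout 2 the median over the 77 genes was 0.02, with 42 estimates above 0, and Mrpl17 was the gene still called, with 7.9% of all genes called. Without heterozygous 3 the median was 0.09, and with the other-cell score as a covariate it was -0.02, against -0.02 and -0.0028 over all tested genes in those fits. Library size alone, in place of TMM scaling, moved the median of all tested genes to -0.15 and that of the 77 genes to 0.03, and with it the split of all calls to 539 higher and 725 lower (9.34% called), against 749 and 544; Mrpl17 was the 1 gene of the 77 called.

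**Figure D3:**
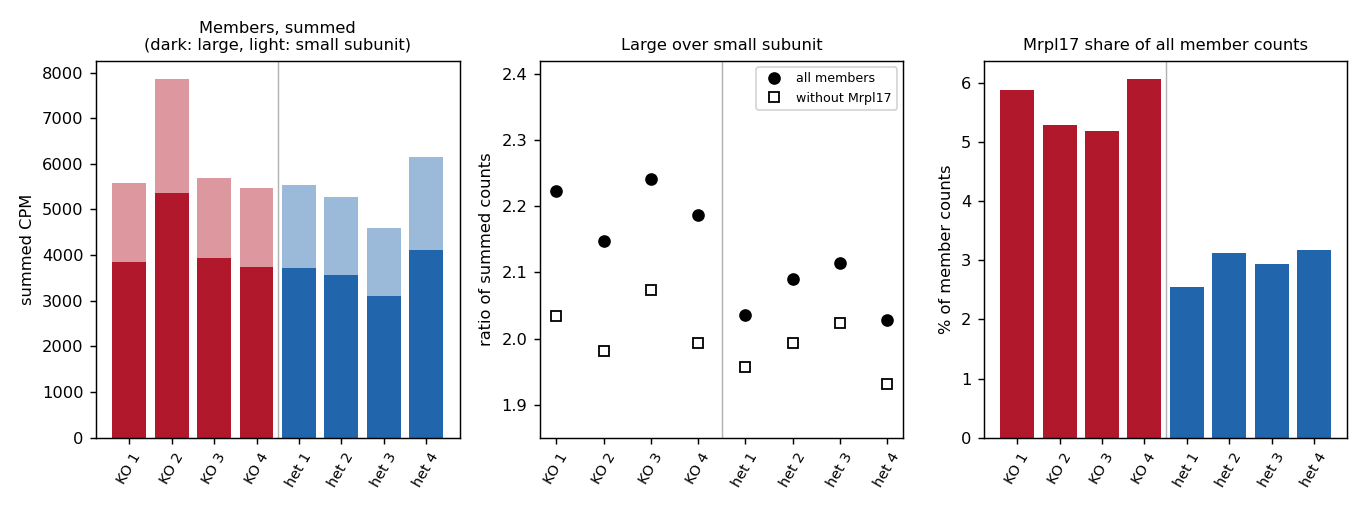
Left, summed CPM of the 77 genes in each knockout (KO, red) and heterozygous (het, blue) library, with the large subunit in the dark and the small subunit in the light part of the bar; middle, ratio of summed counts of the large to the small subunit, with and without Mrpl17, on an axis that does not start at 0; right, the share of Mrpl17 in the counts of these genes. Knockout 2 sums highest, at 7862 CPM, and the ratios of the genotypes separate with Mrpl17 and overlap without it.

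Summed over the 77 genes, the level was 5570, 7862, 5694 and 5464 CPM in knockout libraries 1 to 4, against 5545, 5279, 4588 and 6147 CPM in heterozygous libraries 1 to 4. Knockout 2 was alone above all others, and the remaining 3 knockout libraries lay within the heterozygous range. The genes took 0.519 to 0.747% of all counts in knockout libraries and 0.475 to 0.614% in heterozygous libraries.

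The ratio of large to small subunit counts was 2.22, 2.15, 2.24 and 2.19 in knockout libraries 1 to 4, against 2.03, 2.09, 2.11 and 2.03 in heterozygous libraries 1 to 4. The ranges did not overlap, with each knockout library above each heterozygous one. With Mrpl17 taken out, the ratio was 2.03, 1.98, 2.07 and 1.99 in knockout libraries 1 to 4, against 1.96, 1.99, 2.02 and 1.93 in heterozygous libraries 1 to 4, and the ranges overlapped. These ratios are counts, not per length, and describe RNA and not assembled subunits.

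Within a genotype the 77 genes varied less than most genes. The SD of log2 CPM between libraries of a genotype had a median of 0.26 over the 77 genes, from 0.08 to 0.46, against 0.40 over all tested genes, many of which had lower counts, and 75.3% of all tested genes were above the median of the 77. The steadiest was Mrpl37, with 118 ± 9.23 CPM in knockout and 115 ± 2.28 CPM in heterozygous libraries. The least steady was Mrps21, with 106 ± 36.6 CPM in knockout and 81.6 ± 22.8 CPM in heterozygous libraries (SD, n = 4 each). Both were chosen after their values were seen.

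Compared per kilobase of transcript, the levels of the 77 genes ran from 5.30 to 245 CPM per kb in knockout libraries, with a median of 56.1, and from 5.42 to 214 CPM per kb in heterozygous libraries, with a median of 47.4. Mrpl42, a mitochondria-specific protein of the large subunit, was highest and Mrpl47 lowest in both genotypes. The range is one of RNA, and it depends on the transcript chosen for each gene.

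**Figure D4:**
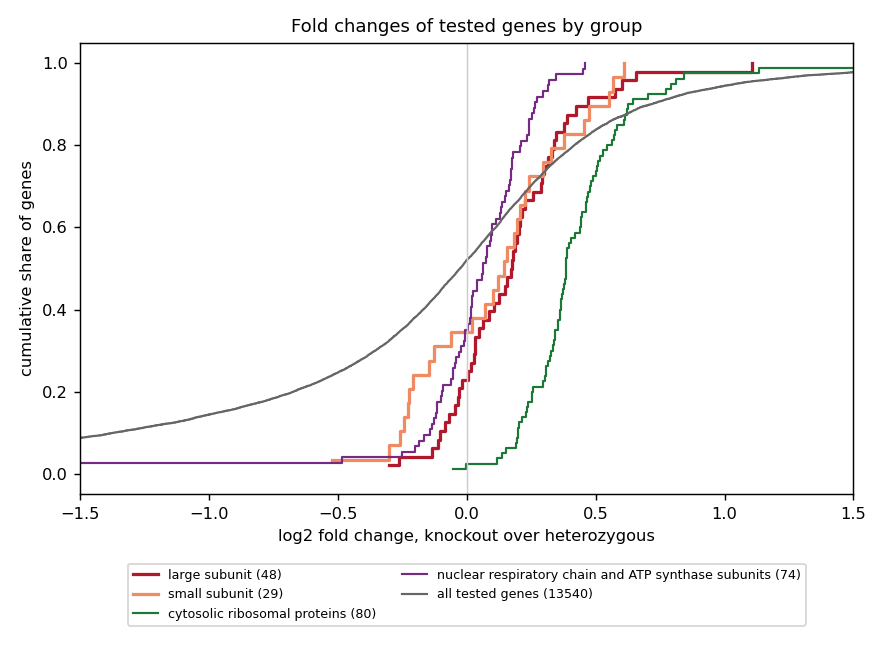
Cumulative share of genes by log2 fold change, knockout over heterozygous, for the large subunit, the small subunit, cytosolic ribosomal proteins, nuclear respiratory chain and ATP synthase subunits, and all tested genes; genes beyond the ends of the axis are counted but not shown. The medians of the mitochondrial ribosomal curves, 0.17 and 0.14, lie between those of the respiratory chain at 0.06 and the cytosolic ribosomal proteins at 0.38. The curves themselves cross: the lower quartile of the small subunit, -0.15, is below that of the respiratory chain, -0.05. All of these curves are steeper than that of all genes.

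Beside them, the proteins of the cytosolic ribosome and of the respiratory machinery were read from the same fit. Both groups were taken by gene symbol: Rpl and Rps for the first, and Nduf, Uqcr, Cox4 to Cox8 and Atp5 for the other. Neither is thus a strict or full list of subunits, and the Sdh genes are not included. Of 80 tested cytosolic ribosomal protein genes 6 were called higher and 0 lower (7.5%), with a median log2 fold change of 0.38. Of all tested genes 9.55% were called, 5.53% higher and 4.02% lower. Of 74 tested nuclear genes for respiratory chain and ATP synthase subunits 0 were called, with a median of 0.06. Knockout 2 stood apart in these groups too: cytosolic ribosomal protein genes summed to 31760, 46733, 31901 and 30845 CPM in knockout libraries 1 to 4, against 26707, 25569, 20713 and 32784 CPM in heterozygous libraries 1 to 4. Respiratory genes summed to 19271, 26470, 20589 and 18218 CPM in knockout libraries 1 to 4, against 19826, 18748, 16552 and 22986 CPM in heterozygous libraries 1 to 4. In each of the 3 groups knockout 2 was the highest library.

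Genes that make, feed or serve the mitochondrial ribosome but do not carry an Mrp symbol were read from 6 lists. Of 6 other mitoribosomal proteins 1 was called higher: Dap3 (mS29), a GTP-binding protein of the small subunit, at 118 ± 6.63 CPM in knockout and 87.3 ± 5.23 CPM in heterozygous libraries, with a log2 fold change of 0.44 and an edgeR adjusted p of 0.0492. That call was lost whichever library was left out. Ict1, the large subunit protein also known as Mrpl58, was not called, at a log2 fold change of 0.18.

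Of 11 tested translation factors 1 was called higher, Gfm2, which splits the ribosome after termination. It stood at 44.7 ± 4.88 CPM in knockout and 28.6 ± 4.46 CPM in heterozygous libraries. Its log2 fold change was 0.65 and its edgeR adjusted p 0.0428. Estimates were above 0 for 5 of the 11 and below 0 for 6. Tufm, the most abundant of the 11, was not called, at 131 ± 20.9 and 165 ± 11.3 CPM (log2 fold change -0.34, edgeR adjusted p 0.184). Of 15 assembly factors 1 was called higher, Mpv17l2, an inner membrane protein needed for assembly in human cells, at 50.2 ± 8.40 and 26.4 ± 7.24 CPM (log2 fold change 0.92, edgeR adjusted p 0.0267). Of 3 genes for inserting new proteins into the inner membrane 1 was called higher, Cox18, which acts on the cytochrome c oxidase subunit Cox2, at 38.8 ± 5.91 and 21.5 ± 3.05 CPM (log2 fold change 0.85, edgeR adjusted p 0.0204). Of 14 tested genes of mitochondrial DNA expression 1 was called higher, Fastk, an RNA-binding protein, at 116 ± 12.5 and 74.4 ± 6.17 CPM (log2 fold change 0.64, edgeR adjusted p 0.0179). Of 10 genes of ribosomal RNA modification 0 were called; Nsun4, the most abundant, stood at 31.1 ± 3.14 CPM in knockout and 22.7 ± 2.17 CPM in heterozygous libraries, with an edgeR adjusted p of 0.136. No gene of these 6 lists was called lower, and their medians ran from -0.06 to 0.22. In the order given, from the other mitoribosomal proteins on, 16.7, 9.09, 6.67, 33.3, 7.14 and 0% of a list were called. Each share comes from at most 1 gene, and 9.55% of all tested genes were called. The calls of Gfm2, Mpv17l2, Cox18 and Fastk survived the removal of a library in 2, 4, 4 and 6 of 8 cases. Gfm2 was called without knockout 2 or heterozygous 2, and Mpv17l2 was lost without knockout 1 or heterozygous 1, 2 or 3. Cox18 was lost without knockout 1 or 4 or heterozygous 1 or 3, and Fastk without knockout 1 or heterozygous 3. With the other-cell score as a covariate none of these 4 was called, at edgeR adjusted p of 0.698, 0.483, 0.538 and 0.710, and none with the replicate block, at 0.111, 0.0538, 0.0622 and 0.0577.

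All 77 genes were located in GENCODE M21, on 17 chromosomes. Exons of 23 overlap an exon of another gene on the opposite strand and those of 5 on the same strand, while 50 overlap neither way. For 18 of the 77 (23.4%) a protein-coding gene on the other strand starts within 1000 bp upstream, against 1491 of 21951 protein-coding genes (6.79%). Pairs that overlap at their starts, such as Mrps11 and Mrpl46, were not counted in either share. Of these 18 partners 1 was called, while 9.55% of all tested genes were. It was Ncapd2, a condensin subunit that starts 100 bp from Mrpl51: it fell to 57.6 ± 12.5 CPM in knockout, against 90.6 ± 7.97 CPM in heterozygous libraries (edgeR adjusted p 0.0395).

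Promoters of 68 of the 77 genes were matched in RefSeq (GRCm38.p6), each 250 bases before and 50 after the start, 74 in all. Mitochondrial ribosomal protein promoters are known for sites of NRF1, ETS factors such as GABP, and YY1. The 3 promoters below are those of the large subunit genes whose knockout libraries were all above the heterozygous ones, at chr7:105811038-105811337 (minus strand), chr11:97041332-97041631 (plus strand) and chr14:57825989-57826288 (plus strand). Capitals mark GCGCA, any base and GCGC, a core of the NRF1 site, and CCGGAAG, a core of the ETS site, found on either strand.
Mrpl17: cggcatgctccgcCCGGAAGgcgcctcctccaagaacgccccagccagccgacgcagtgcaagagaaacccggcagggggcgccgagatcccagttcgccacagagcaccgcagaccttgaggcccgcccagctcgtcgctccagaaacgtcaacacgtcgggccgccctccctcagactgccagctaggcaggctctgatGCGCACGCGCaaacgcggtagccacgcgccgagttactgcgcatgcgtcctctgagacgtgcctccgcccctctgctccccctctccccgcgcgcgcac
Mrpl10: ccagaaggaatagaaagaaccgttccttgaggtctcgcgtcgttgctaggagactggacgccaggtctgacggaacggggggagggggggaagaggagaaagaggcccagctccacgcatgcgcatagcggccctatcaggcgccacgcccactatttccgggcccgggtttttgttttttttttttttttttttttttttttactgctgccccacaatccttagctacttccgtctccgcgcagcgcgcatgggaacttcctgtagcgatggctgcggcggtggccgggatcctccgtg
Mrpl57: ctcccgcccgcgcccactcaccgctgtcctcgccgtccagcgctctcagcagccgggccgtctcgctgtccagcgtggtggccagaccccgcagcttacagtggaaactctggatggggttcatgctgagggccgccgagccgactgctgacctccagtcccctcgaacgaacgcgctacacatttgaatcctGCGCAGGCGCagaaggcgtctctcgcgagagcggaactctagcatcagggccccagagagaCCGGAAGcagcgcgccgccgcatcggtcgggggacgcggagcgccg
Mrpl17 holds the ETS letters at -237 and the NRF1 letters at -49 from the start, Mrpl57 the NRF1 letters at -57 and the ETS letters at 5, and Mrpl10 neither.

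Over the 68 genes, both strands searched, the NRF1 letters stood in promoters of 13 genes (19.1%), against 4.6% of 32851 promoters and 11.1% of the tested genes with a promoter. CCGGAAG stood in 25 (36.8%), against 8.86% of promoters and 19.1% of tested genes, and the YY1 letters AAGATGGCG in 8 (11.8%), against 1.4 and 3.41%. The E-box CACGTG stood in 5 (7.35%), against 7.15 and 11.7%, and TGATGCAA, a core of the ATF4 composite element, in 0, against 0.895 and 0.737%. These shares are of genes. Of the 74 promoters, 17.6% held the NRF1 letters, 33.8% CCGGAAG, 10.8% the YY1 letters, 9.46% the E-box and 0% TGATGCAA. Those are the values to set beside the shares of all promoters. Matches of different motifs did not overlap each other, and 42 of the 68 genes held at least 1 of them. Mrpl17 and Mrpl10, the called genes, differ in these letters. A match is a run of letters in this window and was not tested as a site of binding.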

How the data were processed

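Gene expression in 8 libraries was deposited by the authors as raw counts, 1 row per symbol. Per the labels' protocols, SMART-Seq v4 cDNA went into Nextera XT libraries. The submitters' processing notes name TopHat2 0.7, Cufflinks 2.2.1 and mm10; the counting program and its strand setting are not given in the labels. Depth was 9.11 to 35.9 M counts per library.

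Counts were analysed in R 4.3.3 with edgeR 4.0.16: filterByExpr (minimum count 10, minimum total 15), TMM scaling, and the robust quasi-likelihood test of knockout against heterozygous libraries with no covariate, Benjamini-Hochberg adjusted over 13540 genes, called under 0.05. The SE of a log2 fold change is its size over the square root of F. CPM used TMM-scaled library sizes; log2 CPM had a prior count of 2. The steps were tested on simulated data. No libraries of a genotype agreed within sampling noise.

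The genes and lists were chosen with earlier results of these data known. Named genes are the called ones, the 5 largest and 5 smallest log2 fold changes, the 4 most abundant of each subunit, Mrps30, Mrps18a, up to 4 called genes (or else the most abundant) of each list outside the rule, and Flvcr2. Other genes named were chosen after their values were seen. Alternatives were other scalings, filters, dispersion, tests (DESeq2 1.42.0, limma 3.58.1 voom) and threshold, a replicate block, an other-cell covariate, and left-out libraries.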

Additional observations from a re-analysis of the deposited data

Results flagged for a closer look

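Each of the 25 named genes was checked in both genotypes for a library far from the other 3, which made 50 checks, of which chance alone would mark about 1 in 20. In 4 of them a library stood apart by Dixon's criterion for 4 samples. In knockout 2, Mrps18c had 77.8 CPM, against 45.7 to 47.9 CPM in the other knockout libraries. In the same library Mrpl28 had 233 CPM, against 161 to 166 CPM, and Mrpl51 had 241 CPM, against 165 to 174 CPM. In heterozygous 3, Fastk had 65.2 CPM, against 76.9 to 78.3 CPM in the other heterozygous libraries. Knockout 2 was the library that stood apart for all 3 mitochondrial ribosomal protein genes, and none of these 3 was called.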

How the results depend on the processing

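Mrpl17 was called in 20 of 21 alternatives, with adjusted p of 3.21e-08 to 0.631 over all of them. The 2 calls higher in the knockout, both in the large subunit, became 1 (Mrpl17) with DESeq2 size factors (9.51% of all genes called), library size alone (9.34%), upper quartile scaling (9.12%), limma voom (10.8%), without knockout 1 and heterozygous 2, the libraries with high Ddx3y and almost no Xist (2.19%) and, chosen after seeing the data, without heterozygous 1 and knockout 2 (6.14%). They became 0 with the other-cell score as covariate (0.0369%), 5 at an adjusted p under 0.1 (4 in the large subunit; 15.4%), and 1 to 2 when each library was left out in turn (4.16 to 9.69%). The count of small subunit genes called higher was 0, and became 1 with DESeq2 (17.2%) and 1 at 0.1. Calls lower in the knockout were 0 in every alternative. The replicate block left 1 call, Mrpl17 (6.41%); deviations of same-numbered libraries correlated by -0.05 to 0.21, so the numbers were not taken to pair libraries. The median of the small subunit, 0.14, became -0.12 with the other-cell score. Mrpl10 kept its call in 6 of 21 alternatives, Dap3 in 3, Gfm2 in 9, Mpv17l2 in 13, Cox18 in 14 and Fastk in 15. These tallies, and that of Mrpl17, include the threshold of 0.1, which reuses the main fit and so keeps every call. Without knockout 1 and heterozygous 2 these 5 genes outside the Mrp symbols all lost it, at edgeR adjusted p of 0.0953 to 0.180.

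Some uncalled genes changed sign. Mrpl28 was at 0.0135 without knockout 1 and heterozygous 2 and between -0.18 and 0.029 with libraries left out in turn. With the other-cell score Mrpl4 was at -0.28, Mrps7 at -0.18, Mrps14 at -0.21 and Mrps18a at -0.19. Mrps14 was at -0.10 with library size alone, -0.0559 with upper quartile, -0.0183 with voom, -0.25 without heterozygous 1 and knockout 2, and between -0.22 and 0.23 with libraries left out. Mrps18a was at -0.0039 with library size alone, -0.0109 without heterozygous 1 and knockout 2, and between -0.0032 and 0.21 with libraries left out. Mrps30 ran from -0.13 to 0.027 with libraries left out. The causes were not tested.

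Intervals covered no change for 68 of the 77 genes, so a small difference in them was not detectable with 4 libraries a genotype.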
